A study of Mus musculus with 3 samples.

Results

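The genes described here are 44 members of the tumour necrosis factor (TNF) system: 23 receptors, 16 ligands and 5 TRAF adaptor proteins. They were taken by symbol from a fixed list, and each was found in the GENCODE annotation of the gene tables, which hold 55536 genes in all. The libraries hold polyadenylated RNA of primary cells that the labels call activated regulatory T cells, a CD4 T cell type that depends on Foxp3 and restrains immunity. The cells came from 1 male adult animal of 9 weeks. Its strain was Foxp3GFP-DTR, with CD4CreERT2 and R26tdTomato in the same name, so all libraries share these alleles. By these names Foxp3 carries a green fluorescent marker with a toxin receptor, a tamoxifen-dependent Cre is tied to CD4, and a red reporter lies at R26. The 3 libraries, numbered 1, 2 and 3, are technical replicates of a single biological replicate by their labels and form 1 group. No resting cells or other population stand beside them, so levels are described and the libraries are compared with each other. Each SD is over these 3 libraries (n = 3) and, like each p-value, measures a spread that may be technical.

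The libraries held 20783676 (replicate 1), 21206219 (replicate 2) and 18496690 (replicate 3) estimated counts. The markers of the labelled cell type were present: all 6 regulatory T cell markers passed 1 TPM (the unit of length-scaled transcript abundance) in every library, and their summed level was 2686 to 2776 TPM. Markers of other cells were not all absent. Erythroid markers summed to 407, 533 and 495 TPM in replicates 1, 2 and 3, of which Hba-a2, a haemoglobin gene, gave 329, 434 and 409 TPM. B cell markers summed to 47.9 to 52.8 TPM, of which Cd79b gave 38.2 to 39.9 TPM. Myeloid and dendritic markers summed to 30.3, 21.9 and 32.7 TPM, with S100a8 at 0. CD8 T cell markers summed to 18.5, 24.3 and 23.5 TPM, but only 1 of the 2 reached 1 TPM in every library, and it gave most of the sum. In RNA from many cells, a low level can mean fewer cells or less RNA per cell, and these cannot be told apart.

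TNF receptors are membrane proteins that cluster when a trimeric ligand, itself mostly made as a membrane protein, binds them. Receptors of one branch recruit TRAF adaptors, which assemble ubiquitin ligases and kinases that activate NF-κB. Receptors of the other branch carry a death domain and can start caspase-dependent death. In regulatory T cells, receptors such as Tnfrsf4, Tnfrsf18 and Tnfrsf9 are known as costimulators.

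Stretches of 4 transcripts, and the upstream windows of 1 gene, are printed here because the splicing and start-site results below turn on them. The 4 are those of 9 measured segments for which the forms with and without the segment both averaged over 15 TPM, a choice made after the values were seen. Each transcript stretch is read 5′ to 3′ from the GENCODE M21 transcripts of mm10. Capitals mark the segment that some transcripts of the gene hold and others lack, and the 15 bases on each side, in lower case, are shared. The segment of Tnfrsf9 lies at chr4:150935422-150935556 on the plus strand. That of Ltb lies at chr17:35195050-35195135 on the plus strand, that of Tnfrsf18 at chr4:156028424-156028494 on the plus strand and that of Traf2 at chr2:25538845-25538865 on the minus strand.
Tnfrsf9 exon: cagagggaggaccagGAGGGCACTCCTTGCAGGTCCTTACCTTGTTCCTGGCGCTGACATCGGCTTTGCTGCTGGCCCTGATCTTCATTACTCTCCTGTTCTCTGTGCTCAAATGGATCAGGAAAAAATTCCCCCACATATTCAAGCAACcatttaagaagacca
Ltb longer exon: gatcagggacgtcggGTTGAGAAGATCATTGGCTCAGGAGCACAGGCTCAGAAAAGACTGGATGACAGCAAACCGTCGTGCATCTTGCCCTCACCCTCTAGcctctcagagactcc
Tnfrsf18 retained intron: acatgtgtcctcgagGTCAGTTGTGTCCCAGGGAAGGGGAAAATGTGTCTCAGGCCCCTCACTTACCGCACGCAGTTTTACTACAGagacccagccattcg
Traf2 longer exon: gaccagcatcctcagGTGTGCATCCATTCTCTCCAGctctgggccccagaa

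Tnfrsf9 has 2 annotated RefSeq start sites, 7844 bases apart on the plus strand. The 250 bases before each are given from RefSeq (GRCm38.p6), the upstream one at chr4:150919905-150920154 and the downstream one at chr4:150927749-150927998. Capitals mark matches to the NF-κB consensus decamer, searched on both strands. The downstream window holds 2 overlapping matches, the first of which begins 43 bases before the start site.
Tnfrsf9 upstream start: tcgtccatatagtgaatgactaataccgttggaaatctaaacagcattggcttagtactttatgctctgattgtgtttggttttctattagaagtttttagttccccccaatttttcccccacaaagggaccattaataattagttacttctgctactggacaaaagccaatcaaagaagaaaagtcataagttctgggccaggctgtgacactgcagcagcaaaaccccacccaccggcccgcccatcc
Tnfrsf9 downstream start: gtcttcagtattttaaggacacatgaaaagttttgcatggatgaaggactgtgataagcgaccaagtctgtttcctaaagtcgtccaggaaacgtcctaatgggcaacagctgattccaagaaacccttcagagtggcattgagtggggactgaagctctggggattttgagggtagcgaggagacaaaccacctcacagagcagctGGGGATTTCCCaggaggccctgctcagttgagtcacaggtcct
RefSeq windows were found for 35 of the 44 members. Of their 39 windows, here taken from 250 bases before to 50 after the start, 4 held a match (10.3%), beside 4.51% of 32851 windows of all genes. The other 3 belong to Ltb, Tnfrsf8 and Traf3. A match is a run of letters and not a measured binding site.

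Most members were expressed: 34 of 44 (77.3%) reached 1 TPM in every library, beside 47.4% of 21951 protein-coding genes. The median level was 17.2 ± 0.628 TPM for the members and 0.817 ± 0.0513 TPM for all protein-coding genes. Of the members, 10 (22.7%) averaged 100 TPM or more, beside 8.12% of protein-coding genes. These shares are descriptions of a list chosen for its subject, and no test was made of them. The 10 were 6 receptors (Tnfrsf4, Tnfrsf18, Cd27, Tnfrsf1b, Tnfrsf9 and Tnfrsf25), the ligands Ltb and Lta, and the adaptors Traf1 and Traf5. Another 8 members stayed under 1 TPM in every library, and 2, the ligands Cd70 and Tnfsf4, crossed 1 TPM in some libraries only.

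**Figure D1:**
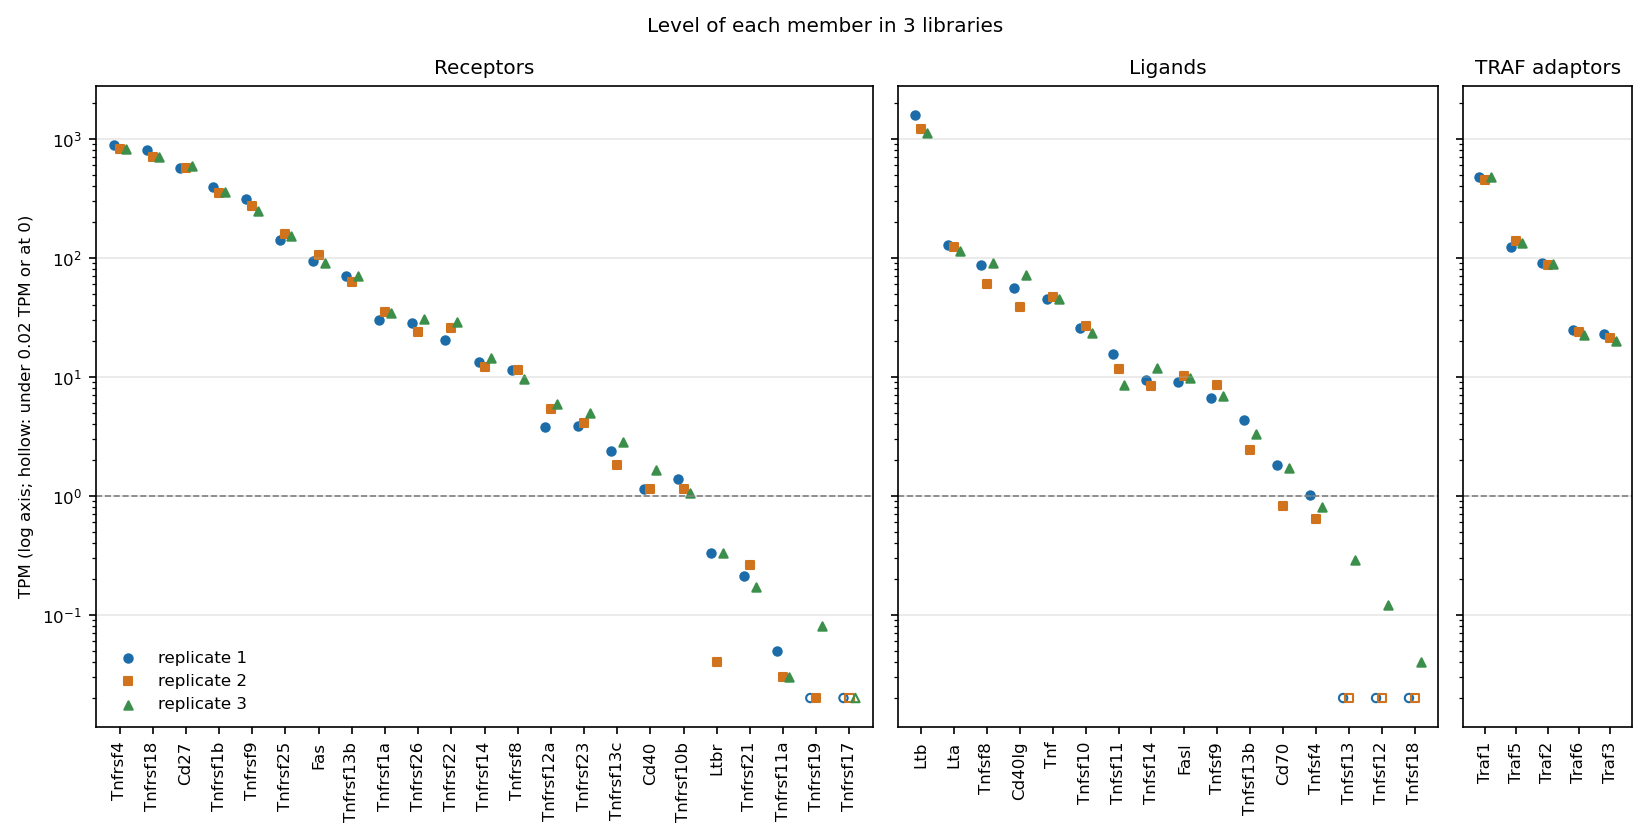
Level of each of the 44 members in TPM (log axis) in replicates 1, 2 and 3, with receptors, ligands and TRAF adaptors in order of mean level. Hollow symbols are values under 0.02 TPM or at 0, and the dashed line is 1 TPM: the 5 TRAF genes all lie above it, while 5 receptors and 3 ligands lie below it in every library.

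Costimulatory receptors had the highest levels among the receptors. Tnfrsf4 (OX40; ENSMUSG00000029075.6, chr4:156013843-156016612) had 892, 817 and 816 TPM in replicates 1, 2 and 3. Tnfrsf18 (GITR; ENSMUSG00000041954.18, chr4:156026164-156028895) had 799, 699.8 and 704 TPM. Both genes lie on the plus strand with 9.55 kb between them and no other protein-coding gene in the gap. Their values did not overlap, and Tnfrsf4 was 1.15-fold higher on the log2(TPM + 0.1) scale (log2 ratio 0.20 ± 0.03). In the smaller deposited gene table that log2 ratio was only 0.06. Its counts were divided by the combined length of all annotated exons of the gene, in place of the lengths used for TPM. They also fall below proportion at high levels, so ratios from that table cannot settle the size of a fold. Cd27, a costimulator of naive and memory T cells, followed with 565, 563 and 585 TPM. Cd27 overlaps Vamp1 on the opposite strand, which had 1888, 2033 and 1870 estimated counts. Since the strand setting of the counting is not given in the sources used here, reads in such an overlap may be misassigned.

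Tnfrsf9 (4-1BB; ENSMUSG00000028965.13, chr4:150914562-150946102), a costimulator induced on activation, had 309, 273 and 246 TPM. Replicate 1 was highest and replicate 3 lowest. Tnfrsf1b, the TNF receptor of lymphocytes that lacks a death domain, had 389.7, 352 and 357 TPM. Tnfrsf1a, the widely expressed TNF receptor with a death domain, had 29.99, 35.1 and 34.2 TPM. Tnfrsf1b therefore exceeded Tnfrsf1a by 3.47 ± 0.20 on the log2(TPM + 0.1) scale, or 11.1-fold. The log2 ratio was 1.64 in the smaller deposited gene table, with its counts divided by exon length. Since counts there fall below proportion at high levels, that table cannot settle the fold.

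Receptors with a death domain spanned a wide range. Tnfrsf25 (DR3), a T cell costimulator despite its death domain, had 140.3, 158 and 151 TPM. Fas, the receptor of Fas ligand, had 94.8, 105 and 90.9 TPM, so the library values of these 2 genes did not overlap. Tnfrsf10b, the TRAIL receptor that signals death in mouse, was close to the detection limit with 1.38, 1.15 and 1.06 TPM, and Tnfrsf21 (DR6) was at 0.21, 0.26 and 0.17 TPM. In the same libraries 4 of the 5 death domain receptors reached 1 TPM, and the median of the 5 was 33.1 ± 2.71 TPM.

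Tnfrsf22 and Tnfrsf23, mouse decoy receptors for TRAIL, and their neighbour Tnfrsf26 form a cluster on chromosome 7. Tnfrsf26 had 28.3, 23.6 and 30.4 TPM, Tnfrsf22 had 20.3, 25.7 and 28.7 TPM and Tnfrsf23 had 3.87, 4.1 and 4.94 TPM. The values of Tnfrsf26 and Tnfrsf22 overlapped. These genes are related copies and all 3 overlap 1 antisense gene, so the split of reads among them is uncertain.

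Receptors best known from B cells differed widely. Tnfrsf13b (TACI), a receptor for BAFF and APRIL, had 70.2, 62.0 and 70.0 TPM. Tnfrsf13c, the BAFF receptor, had 2.36, 1.8 and 2.82 TPM, and Tnfrsf17 (BCMA) had no count in any library, which sets its upper limit at 0.144, 0.141 and 0.162 CPM, that is counts per library scaled to depth. Cd40, which B cells and dendritic cells use to receive T cell help, had 1.13, 1.15 and 1.66 TPM. Beside them the B cell marker Ms4a1 had 1.57, 1.57 and 3.43 TPM, and 4 of the 5 B cell markers reached 1 TPM in every library. The part of B cells in these levels was not tested.

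The remaining receptors were low. Tnfrsf14 (HVEM) averaged 13.2 ± 1.16 TPM, Tnfrsf8 (CD30) 10.7 ± 1.09 TPM and Tnfrsf12a (Fn14) 5.01 ± 1.12 TPM. Ltbr, the lymphotoxin beta receptor of stromal and myeloid cells, had 9, 1 and 8 estimated counts, or 0.33, 0.04 and 0.33 TPM. Tnfrsf11a (RANK) and Tnfrsf19 (TROY) were both under 0.1 TPM in every library. Along the receptors' order of mean level, 15 of 22 neighbouring pairs had library values that did not overlap.

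Among ligands, lymphotoxin beta stood far above the rest. Ltb (ENSMUSG00000024399.5, chr17:35194439-35196320) had 1578, 1214 and 1112 TPM and was the most abundant of the 44 members in every library. Lta, the soluble partner with which it forms the membrane lymphotoxin heterotrimer, had 128, 124 and 115 TPM. Tnf had 44.9, 46.4 and 44.7 TPM. The 3 genes are neighbours on chromosome 17, with 3.06 kb between Ltb and Tnf and 1.16 kb between Tnf and Lta. Ltb exceeded Lta by 10.5-fold (log2 ratio 3.39 ± 0.20), and Lta exceeded Tnf by 2.69-fold (1.43 ± 0.08). In the smaller gene table, where counts fall below proportion at high levels, the log2 ratio of Ltb to Lta was 1.23.

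Tnfsf8 and Cd40lg had higher mean levels than Tnf, although Cd40lg overlapped with it. Tnfsf8 (CD30 ligand) had 86.2, 60.0 and 89.5 TPM. Cd40lg (ENSMUSG00000031132.1, chrX:57212143-57224042), the T cell help signal for B cells, had 55.3, 38.2 and 72.3 TPM. In both genes replicate 2 was the lowest library. Tnfsf10 (TRAIL) averaged 25.3 ± 1.67 TPM, Tnfsf14 (LIGHT) 9.86 ± 1.77 TPM, Fasl 9.68 ± 0.619 TPM and Tnfsf9 7.35 ± 1.07 TPM. Tnfsf11 (RANKL), which drives osteoclast formation, had 15.5, 11.7 and 8.57 TPM. Tnfsf13b (BAFF), made mainly by myeloid cells, had 4.36, 2.44 and 3.3 TPM.

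The ligands Cd70, Tnfsf4, Tnfsf18, Tnfsf12 and Tnfsf13 were near or below detection. Cd70 had 1.81, 0.82 and 1.71 TPM, and Tnfsf4 (OX40 ligand) had 1.01, 0.64 and 0.8 TPM. Tnfsf18 (GITR ligand) had 1 estimated count in all, in replicate 3. Tnfsf12 (TWEAK) had 2 and Tnfsf13 (APRIL) had 5, also in replicate 3 alone. Tnfsf12 and Tnfsf13 lie 465 bases apart and share a read-through transcript and an antisense gene, so their few reads are uncertain. In all, 18 of 23 receptors reached 1 TPM in every library, with a median of 13.2 ± 1.16 TPM, against 11 of 16 ligands and a median of 9.28 ± 0.104 TPM. The receptor median exceeded the ligand median by 0.51 ± 0.14 on the log2(TPM + 0.1) scale, and by 1.23 ± 0.29 over the members that reached 1 TPM in at least 1 library. With 3 libraries an exact two-sided test cannot give a p below 0.25, so none is given.

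Receptor and ligand levels were set side by side for 24 known pairs. The receptor was higher than its ligand in every library in 11 pairs, the ligand was higher in every library in 11, 1 was mixed and 1 had both genes under 1 TPM in every library. In 14 pairs both genes reached 1 TPM in every library. Ratios compare RNA levels of genes measured in one population and say nothing of protein or of which cell makes each. The receptor-high pairs included the costimulators. Tnfrsf9 was 37.2-fold above Tnfsf9 (log2 ratio 5.22 ± 0.28) and Fas was 9.92-fold above Fasl (3.31 ± 0.10). Tnfsf9 had 108, 148 and 101 estimated counts and overlaps Gm11110 on the opposite strand, which had 231, 240 and 209. Tnfrsf9 overlaps Camta1 on the opposite strand, with 184, 205 and 136 estimated counts. With the strand setting not given, reads there may be misassigned, so the fold of Tnfrsf9 over Tnfsf9 is uncertain. Tnfrsf1b was 8.06-fold above Tnf (3.01 ± 0.10) and 2.99-fold above Lta (1.58 ± 0.07). In the smaller deposited gene table, with counts divided by exon length, these receptors were still higher but by less. The log2 ratios were 2.57 for Tnfrsf9 over Tnfsf9, 1.52 for Tnfrsf1b over Tnf and 0.35 for Tnfrsf1b over Lta. Both counts and lengths differ there from those behind TPM, and counts fall below proportion at high levels. That table therefore cannot settle the size of these folds. For Tnfrsf4, Tnfrsf18 and Cd27 the ligand was at or under the detection limit in at least 1 library, so no fold is given.

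The ligand-high pairs ran the other way. Tnfrsf1a was below both Tnf (log2 ratio -0.46 ± 0.11) and Lta (-1.89 ± 0.18), so the TNF receptors differed in their order against the same ligands. Tnfrsf8 was below Tnfsf8 (-2.84 ± 0.41) and Cd40 below Cd40lg (-5.26 ± 0.29). Tnfrsf10b was below Tnfsf10 (-4.30 ± 0.16). Ltbr had a mean of 0.233 TPM beside 1301 TPM of Ltb, and Tnfrsf11a had 0.0367 TPM beside 11.9 TPM of Tnfsf11. Tnfrsf14 and Tnfsf14 were close, with a log2 ratio of 0.43 ± 0.13. In the smaller table the log2 ratios were 1.07 for Tnfrsf14 over Tnfsf14, -1.75 for Tnfrsf8 over Tnfsf8 and -6.31 for Cd40 over Cd40lg. There Tnfrsf1a over Lta was -1.29, while Tnfrsf1a over Tnf was only -0.12, close to no difference. Tnfrsf22 and Tnfsf10 changed order between libraries, with log2 ratios of -0.33, -0.06 and 0.29.

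**Figure D2:**
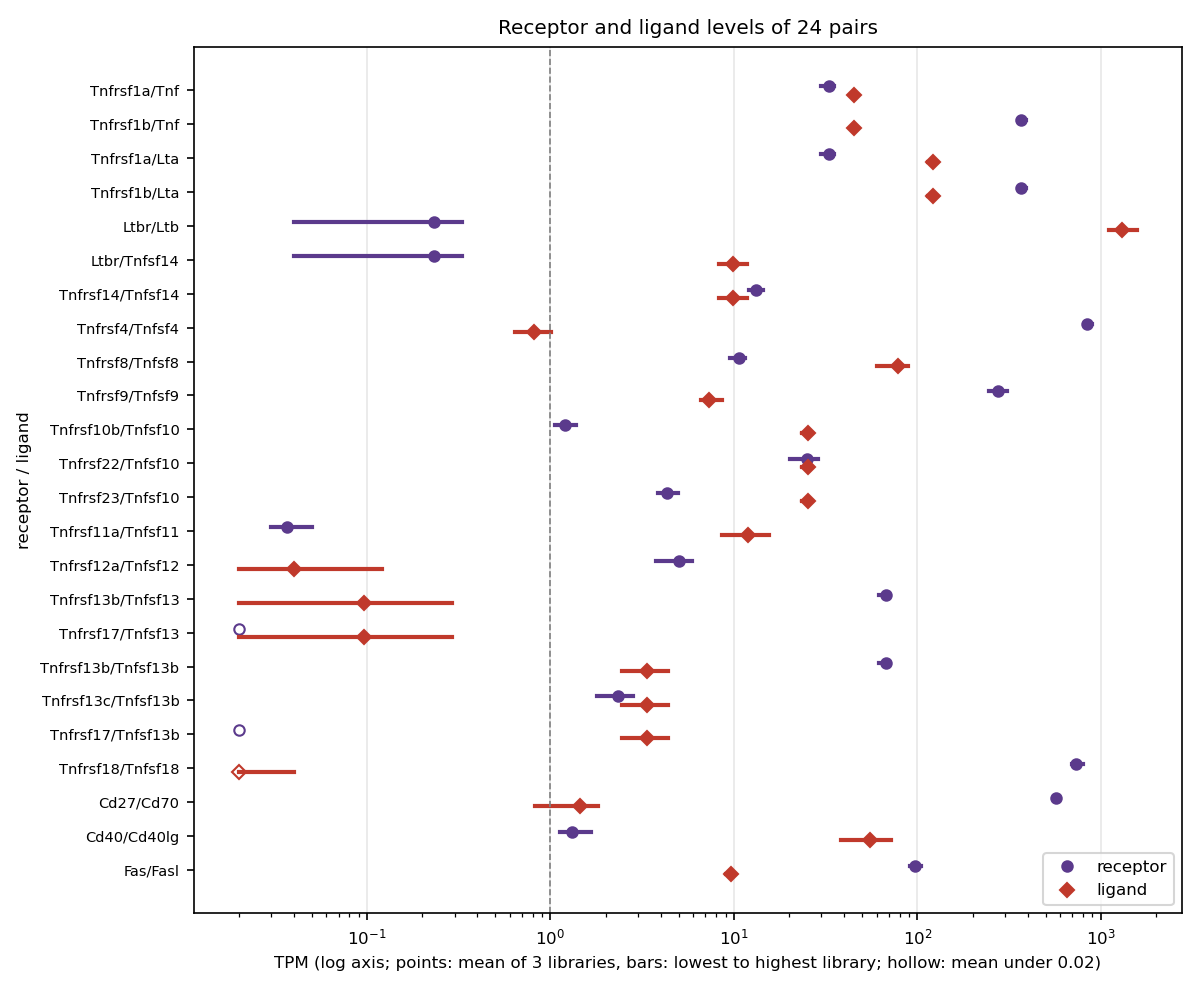
Receptor (circles) and ligand (diamonds) levels in TPM (log axis) for 24 pairs, as the mean of 3 libraries with a bar from the lowest to the highest library. Tnfrsf4, Tnfrsf18, Cd27 and Tnfrsf9 lie far to the right of their ligands, while Ltb, Cd40lg, Tnfsf8 and Tnfsf11 lie to the right of their receptors.

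All 5 TRAF genes were detected, with a median of 88.9 ± 1.4 TPM. Traf1 (ENSMUSG00000026875.14, chr2:34941750-34961772), an adaptor without a RING domain that is itself induced by NF-κB, had 480.1, 454 and 477 TPM. Traf5, which binds several of the costimulatory receptors, had 123, 138 and 133 TPM, and Traf2, which recruits the ligases Birc2 and Birc3, had 90.2, 87.4 and 89.2 TPM. Traf6 and Traf3 were lower, at 23.5 ± 1.28 TPM and 21.3 ± 1.58 TPM, and their values overlapped. Traf3 is known as a brake on the alternative NF-κB pathway. Traf1 exceeded Traf2 by 5.28-fold (log2 ratio 2.40 ± 0.02) in TPM. In the smaller gene table the log2 ratio was -0.05, close to no difference. Counts there fall below proportion at high levels, so that table cannot decide the fold of Traf1 over Traf2.

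Other genes of the pathway were read from lists outside the 44 members. All 9 death signalling genes reached 1 TPM. Casp8, the initiator caspase, was at 222 ± 4.28 TPM, its inhibitor Cflar at 121 ± 8.6 TPM and the kinase Ripk3 at 71.6 ± 5.09 TPM. The lowest were Mlkl, the executor of necroptosis, at 4.84 ± 0.602 TPM and the adaptor Fadd at 3.53 ± 0.82 TPM. All 13 ubiquitin ligase and kinase genes reached 1 TPM, led by Rbck1 (290.4 ± 11.4 TPM), Ikbkb (209 ± 8.88 TPM) and Sharpin (158 ± 7.6 TPM), with Map3k7 (4.83 ± 0.479 TPM) and Tab3 (2.83 ± 0.396 TPM) lowest. Rbck1 and Sharpin are subunits of the linear ubiquitin ligase. Of the 6 feedback genes, all detected, Tank (194 ± 4.37 TPM), Tnip1 (150.1 ± 4.97 TPM) and Cyld (147 ± 1.98 TPM) were highest, with Tnip2 (26.0 ± 1.61 TPM) and Otulin (3.5 ± 0.297 TPM) lowest. Of the genes that cut TNF receptors and ligands from the membrane or regulate the cutting, Adam10 was at 101 ± 6.84 TPM, Adam17 at 70.6 ± 4.31 TPM and Rhbdf2 at 10.8, 11.9 and 13.4 TPM, and the inhibitor Timp3 had 0.03, 0.43 and 0 TPM. Of the 9 family genes outside the members, 6 stayed under 1 TPM in every library. Traf7 (81.2 ± 1.25 TPM), Relt (25.0 ± 1.59 TPM) and Traf4 (3.91 ± 0.493 TPM) were detected, and Eda2r, Ngfr, Tnfrsf11b and Eda had no count. Tnfsf15, the ligand of Tnfrsf25, had 0.6, 0.61 and 0.13 TPM.

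Transcript shares added a layer below the gene level. Of 25 members averaging 10 TPM or more, 21 have several annotated transcripts and 4 have 1. The leading transcript held 50% or more of the gene's TPM in 14 of the 21 and 90% or more in 8, among them Tnfrsf1b and Tnf. It held under 50% in 7, and all 21 leading transcripts are annotated as protein coding. Transcript levels divide reads by a model, so segments are described as shares of the deposited TPM.

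Tnfrsf9 was split nearly evenly between forms with and without the 135-base exon printed above. Transcripts with it had 151, 146 and 121 TPM, and transcripts without it had 135, 125 and 116 TPM. The share with the exon was 52.8, 53.9 and 51.0%, a mean of 52.6 ± 1.45%. The exon keeps the reading frame, and a mouse splice form without the membrane-spanning exon is known to give a soluble receptor. The forms also tracked the start sites: transcripts beginning at the downstream start, where the coding one holds the exon, had 49.4 ± 2.66% of the gene's TPM, and those at the upstream start, where the abundant one lacks it, had 42.8 ± 2.3%. The exon and the start site therefore cannot be told apart in these transcripts. Another transcript, Tnfrsf9-201, joins the upstream start to the exon and was at 0.0162, 0 and 0% of the gene's TPM.

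Ltb was likewise divided between transcripts with and without the 86-base segment. The share with it was 50.7, 50.7 and 50.1%, while the gene's level differed between the libraries. That share includes Ltb-202, a transcript annotated as a retained intron, with 2.98 ± 0.281% of the gene's TPM. The coding transcript with the segment, Ltb-201, held 47.5 ± 0.606% of the gene's TPM and the one without it, Ltb-203, held 49.5 ± 0.337%. The segment does not keep the frame, and the annotated coding lengths of Ltb-201 and Ltb-203 are 918 and 555 bases. The Tnfrsf18 transcript that retains the 71-base intron, Tnfrsf18-203, had 330.4, 324 and 314 TPM, against 459.6, 372 and 381 TPM for transcripts that splice it. It made up 44.5 ± 2.43% of the total of both. An antisense gene overlaps Tnfrsf18, with 149, 136 and 145 estimated counts.

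The Traf2 form with 21 added bases held 77.8 ± 0.937% of the TPM of both forms, with 69.4, 68.9 and 69.2 TPM. The added bases keep the frame, and a form with a small insertion in the RING domain is known in mouse as TRAF2A. The leading transcripts with and without the addition differ in total length too (2151 and 3044 bases), so the split does not rest on the added bases alone. The Tnfrsf22 form with a 45-base exon took 19.0, 23.0 and 38.9% of the TPM with and without it and was highest in replicate 3. In the other 4 segments the less abundant form averaged 2.43 to 5.95 TPM. A 3-base extension in Tnfrsf14 took 49.2, 100 and 55.6%, and a 90-base exon of the same gene took 32.2, 26.9 and 43.3%. A 132-base exon of Cd27 took 75.1, 70.0 and 92.7% in minor transcripts of that gene, and a 109-base exon of Traf3 took 34.9, 28.5 and 34.1%. Fas-201 held 70.1 ± 1.42% of Fas TPM, Cd27-201 71.1 ± 1.33% of Cd27 TPM and Traf1-201 only 40.1 ± 0.623% of Traf1 TPM.

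**Figure D3:**
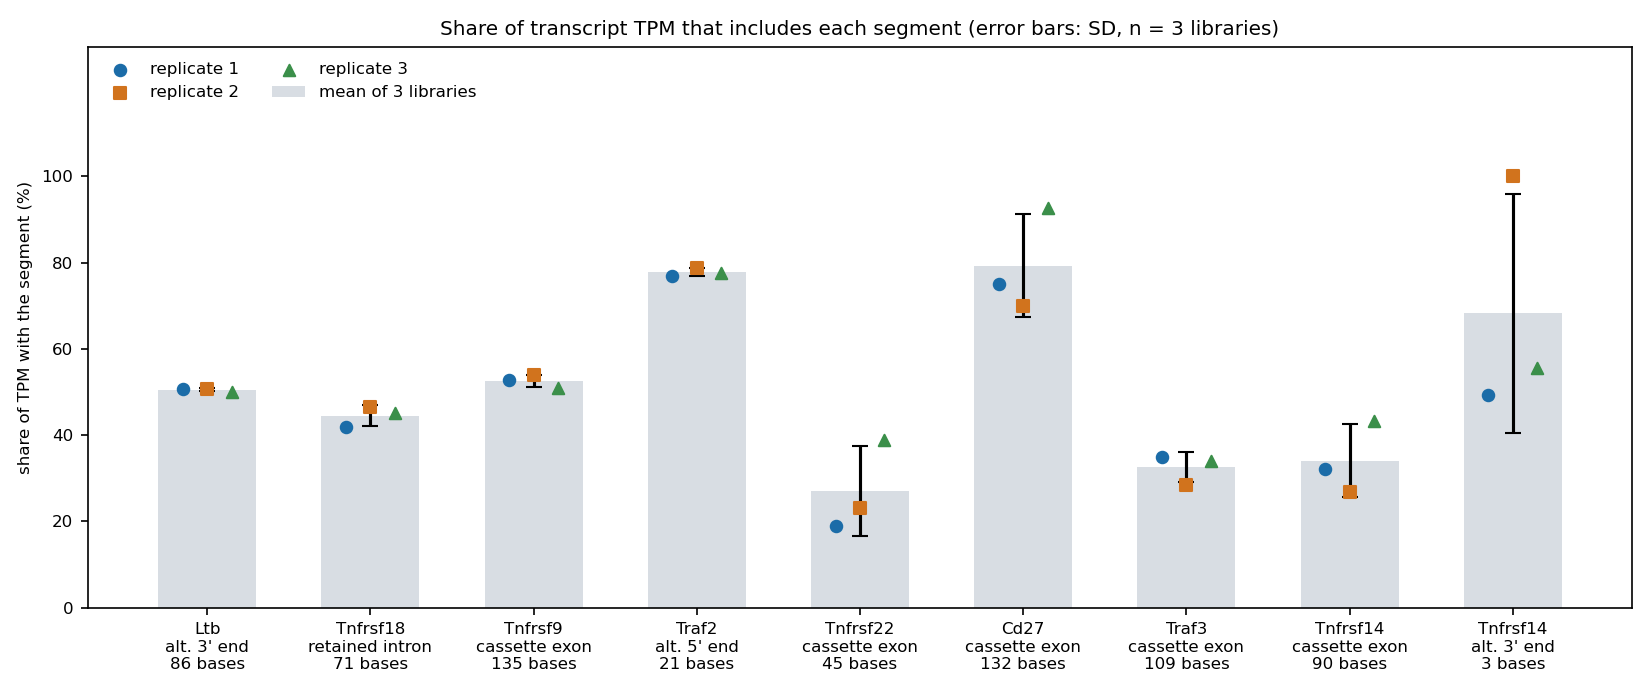
Share of transcript TPM that includes each of 9 segments, in order of summed TPM (bars: mean; error bars: SD; symbols: replicates 1, 2 and 3). The Tnfrsf9 exon and the Ltb segment sit near 50% in every library, the Traf2 segment near 78%, and the widest spread is that of the 3-base segment of Tnfrsf14, from 49.2 to 100%.

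The libraries were compared for each gene by a chi-square test of homogeneity on estimated counts, with Benjamini-Hochberg adjustment over 14641 genes. Of 37 members with at least 30 counts in all, 22 (59.5%) differed, beside 44.9% of all genes tested. By class, 11 of 19 receptors, 8 of 13 ligands and 3 of 5 TRAF genes differed. The test takes counting noise as its null, so at this depth small shifts pass it: Tnfrsf4 differed (adjusted p = 5.86e-07, chi-square test) with a ratio of only 1.08 between its highest and lowest library. That call was lost without replicate 1 (adjusted p = 0.129, chi-square test). Genes with steady levels included Traf2 (ratio 1.01, adjusted p = 0.939, chi-square test) and Tnf (1.06, adjusted p = 0.428, chi-square test).

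Among the 22 members that differed, the 5 with the widest ratios between libraries were ligands. In CPM, Cd40lg was 1.85-fold higher in replicate 3 than in replicate 2 (adjusted p = 5.11e-32, chi-square test), and Tnfsf8 was 1.45-fold higher in replicate 3 than in replicate 2 (adjusted p = 7.98e-62, chi-square test). Tnfsf11 was 1.81-fold higher in replicate 1 than in replicate 3 (adjusted p = 2.20e-11, chi-square test). Ltb was 1.42-fold higher in replicate 1 than in replicate 3 (adjusted p = 1.78e-234, chi-square test). Fasl differed by 1.6-fold in counts (adjusted p = 1.56e-04, chi-square test), highest in replicate 3 and lowest in replicate 2, but by TPM replicate 2 was its highest library. The call for Tnfsf8 was lost without replicate 2 (adjusted p = 0.172, chi-square test), and those of Cd40lg, Tnfsf11 and Ltb held without any 1 library. The call for Fasl was lost without replicate 2 (adjusted p = 0.0547, chi-square test) and without replicate 3 (adjusted p = 0.08, chi-square test). Of the 7 myeloid and dendritic markers, 4 were lowest in replicate 2 by CPM, among them Csf1r at 24.2, 15.2 and 25.6 CPM. Of the others, Itgam was lowest in replicate 3, Itgax was lowest in replicate 1 and S100a8 had no count. The 4 erythroid markers were all highest in replicate 2. Their part in the ligand differences was not tested.

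The smaller deposited gene table, with whole-number counts, gave another picture for the most abundant members. There 7 of 35 members tested differed (20%), beside 23.2% of all genes tested in it. The 7 were Cd40lg, Tnfsf8, Tnfsf11, Fasl, Fas, Tnfrsf25 and Traf6. Ltb had 20702, 16688 and 13013 estimated counts in the larger table but 1824, 1792 and 1790 counts in the smaller one (adjusted p = 0.12, chi-square test). Of the 22 differing members, 12 had the same highest and lowest library in both tables. None of the 5 members with a mean count of 5000 or more was among those 12, and 12 of the other 17 were. Counts in the smaller table fall below proportion at high levels. Their median ratio to the larger table's was 0.137 from 10000 to 30000 counts in replicate 1, against 0.5 from 10 to 100. The smaller table therefore cannot decide whether Ltb and the other abundant members differed between libraries.

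**Figure D4:**
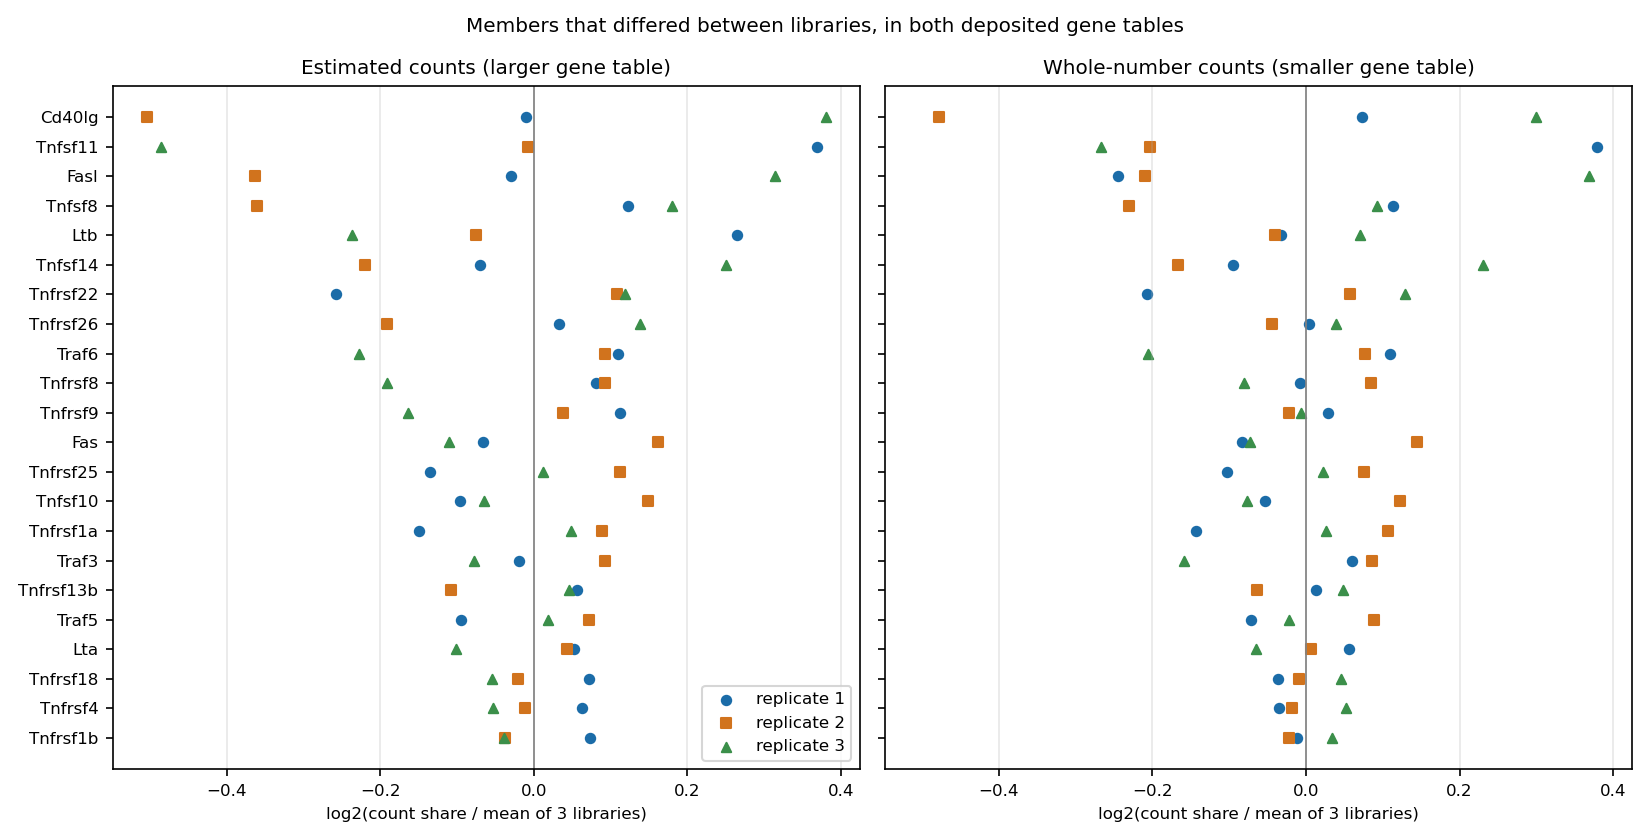
For the 22 members that differed between libraries, the log2 ratio of each library's count share to the mean of the 3 libraries, from the larger gene table (left) and the smaller one (right). Cd40lg keeps replicate 2 lowest and replicate 3 highest in both. Ltb, Tnfrsf18, Tnfrsf4 and Tnfrsf1b have replicate 1 highest on the left and replicate 3 highest on the right. Only Ltb is widely spread on the left, with a ratio of 1.42 between its highest and lowest library. The other ratios of these genes, in both panels, are 1.04 to 1.09, so their orders rest on small differences.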

How the data were processed

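The authors deposited, per library, gene and transcript tables in RSEM's column layout on mm10 with GENCODE M21, per the files listing each library's contents, and a smaller gene table on GENCODE M4. Neither the aligner nor the quantifier's version nor the strand setting is named by the labels or files. The estimated counts deposited by the authors are expected counts that need not be whole, since ambiguous reads are divided, the deposited TPM and FPKM scale reads to length and depth, and the deposited percent of isoform gives each transcript's share of its gene. The smaller deposited table holds whole-number counts for 22457 genes, and how its reads were counted is not stated. The authors' TPM intervals were not used. Rows that name no gene (0.189 to 0.271% of counts) stayed out of totals and tests.

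Levels are deposited TPM; a gene was detected where all 3 libraries reached 1 TPM. Ratios used log2(TPM + 0.1). Library differences were tested by Pearson's chi-square test (2 degrees of freedom): the estimated counts, rounded, were set against the totals of the libraries, for genes with 30 or more counts in all, with Benjamini-Hochberg adjustment and a threshold of 0.05. The floor of a count of 0 is 3 counts and, like intervals, covers counting error alone, as PCR reads lacking molecular identifiers are not independent. Shares of segments compare the TPM of transcripts with and without a segment, for members averaging 10 TPM or more, where both forms have a coding transcript and a mean share of 10% or more. Alternatives were other thresholds, pseudocounts, filters and units, scaling by edgeR's TMM factors and DESeq2's size factors, a deviance statistic, the smaller gene table and leaving out each library. For ratios between genes, the smaller table's counts were divided by the combined length of all GENCODE M21 exons of the gene. The smaller table's ratios between members of one class were added after seeing the data.

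All members were named or counted; of each other list the 3 highest and 2 lowest by mean TPM were named, and Tnfsf15 after its values were seen. One marker gene is not reported here and stays in the list's count and sum. The members, lists and tests were chosen with earlier results of these data known. A planned search for TRAF-binding motifs in proteins was not run, and protein sequences were not used here. Python 3.11.15 was used with scipy 1.17.1, pandas 2.3.3, statsmodels 0.14.6, matplotlib 3.10.9 and numpy 2.4.6. Scaling factors came from DESeq2 1.42.0 and edgeR 4.0.16 in R 4.3.3.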

Additional observations from a re-analysis of the deposited data

How the results depend on the processing

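The number of members detected was 31 to 36 over the other thresholds, FPKM and the mean, and 34 to 35 with 1 library left out. List levels depended on the summary: with the mean of the list in place of the median, receptors were at 140.3 TPM, ligands at 105 TPM and TRAFs at 147 TPM. Without members under 1 TPM in every library the medians were 30.6 TPM for receptors and 13.0 TPM for ligands, and as FPKM they were 8.49, 5.95 and 57.0 for receptors, ligands and TRAFs. With 1 library left out the medians were 12.7 to 13.8 TPM, 9.22 to 9.31 TPM and 88.3 to 89.7 TPM. The receptor minus ligand median stayed above 0, at 1.23 without members under 1 TPM and 0.44 to 0.58 with 1 library left out. Pairs with the receptor higher numbered 11 or 12 under every alternative, but the size of the ratios was less stable. Of 24 ratios, 19 moved by more than their SD but kept their sign in the smaller gene table, and 1 changed sign. With a pseudocount of 1, 13 moved by more than their SD, with 0.01 it was 5, and as FPKM 4. Tnfrsf13c over Tnfsf13b turned to a log2 ratio of 0.13 in the smaller gene table. Traf1 over Traf2 fell there to -0.05, close to no difference. TMM factors, DESeq2 size factors and the deviance statistic gave 22 members that differed between libraries, beside 44.7 to 45.0% of all genes. The filter moved the share of all genes more than that of the members: at a summed count of 10 it was 57.9% of members beside 38.1% of all genes, and without a filter 53.5% (23 of 43) beside 20.1%. The smaller gene table gave 7 members (20%) and 2520 of all genes (23.2%). Leaving out 1 library gave 14 to 17 members and 3783 to 4701 genes, with fewer counts tested. The shares were 48.6% of members beside 30.3% of all genes without replicate 1 and 38.9% beside 27.7% without replicate 2. Without replicate 3 they were 48.6% beside 34.0%. The cause of the difference between the gene tables was not tested. Member by member, leaving out 1 library lost 20 calls and gained 2 over the 3 libraries, and the smaller table lost 15. Of the 37 members tested, 31 had the same highest and lowest library under the 3 scalings; Lta, Tnf, Tnfrsf22, Tnfrsf23, Traf2 and Traf6 did not. The number of leading transcripts with 50% or more was 18 on estimated counts and 14 to 15 with 1 library left out. No paired analysis was possible because there is 1 group. Members with few counts, such as Ltbr, Cd40 and Cd70, limit what can be said of their order.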

Other observations

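The smaller gene table was not proportional to the larger one. Over genes with 10 to 100 estimated counts in replicate 1, the median ratio of the smaller table's count to the larger one's was 0.5, and it was 0.513 from 100 to 1000 counts. It was 0.345 from 3000 to 10000, 0.137 from 10000 to 30000 and 0.0299 above. Tnfrsf1b had 19266, 18196 and 15865 estimated counts and 2528, 2477 and 2383 counts in the smaller table. Among members with few counts the ratio varied too. Tnfrsf14 had 151, 150 and 141 against 142, 142 and 136, but Tnfrsf12a had 41, 58 and 59 against 8, 17 and 18. Counts of abundant and of rare genes in the smaller table are thus not on 1 scale.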
